A study of Mus musculus with 7 samples.

Results

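The small leucine-rich proteoglycans (SLRPs) of the dermis were examined in dorsal skin of aged mice after topical ABT-263. The members were chosen by symbol: Dcn (decorin), Bgn (biglycan), Lum (lumican), Fmod (fibromodulin), Ogn (osteoglycin), Prelp, Aspn (asporin), Podn (podocan) and Omd (osteomodulin). All 9 were found among the 55450 genes of the count table and all 9 passed the filter on low counts, which kept 17959 genes. The members and the further gene lists below were chosen with earlier results of these data known. The mice were wild type C57BL/6 males aged 24 months. In the ABT-263 group, 3 mice (476, 477 and 478) received 5 μM ABT-263 (Navitoclax, an inhibitor of anti-apoptotic Bcl-2 family proteins used as a senolytic) in DMSO on the dorsal skin for 5 days, and in the control group 4 mice (480, 481, 482 and 483) received DMSO alone. In both groups hair was removed and the skin was kept under a semi-occlusive dressing, and polyA RNA of the whole skin homogenate was sequenced with 1 library per mouse.

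SLRPs are secreted proteins with a core of leucine-rich repeats, most of which carry chondroitin, dermatan or keratan sulfate chains. In skin they are made mainly by fibroblasts, sit on the surface of collagen fibrils and regulate how wide and how evenly spaced the fibrils become, and several bind growth factors such as TGF-β. Mice without decorin have fragile skin with irregular collagen fibrils, and soluble biglycan is known as a ligand of Toll-like receptors.

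The members lie in clusters of the mouse genome (mm10). Lum (chr10:97565128-97572703) starts 47.0 kb after the end of Dcn (chr10:97479609-97518143), with no other protein-coding gene of the annotation between them. Prelp (chr1:133910304-133921414, minus strand) and Fmod (chr1:134037254-134048277, plus strand) are 115.8 kb apart. Aspn (chr13:49544443-49567565), Omd (chr13:49582462-49592822) and Ogn (chr13:49608046-49624501) follow each other with gaps of 14.9 and 15.2 kb, all inside the span of Cenpp on the opposite strand. Bgn (chrX:73483602-73495933) and Podn (chr4:108014791-108096445) stand alone. No exon base of any member is shared with another gene on the same strand. On the opposite strand, 9.68% of the exon bases of Prelp overlap the antisense gene Gm15851 and 0.297% of those of Aspn overlap another gene, and per the methods the counting used strand.

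RefSeq (GRCm38.p6) held promoters for 7 of the 9 members, with none for Dcn and Lum. The 250 bases before the start site are given for 5 of them, since Bgn, Prelp and Aspn are the called members with an entry, Ogn lies in the cluster of Aspn and has the most similar profile to it, and Fmod is the neighbour of Prelp with a fold change of the other sign. Capitals mark matches on either strand to a TATA box, SMAD box, CCAAT box, GC box or AP-1 site, each spelled out after the sequences.
Bgn, chrX:73483351-73483600, plus strand: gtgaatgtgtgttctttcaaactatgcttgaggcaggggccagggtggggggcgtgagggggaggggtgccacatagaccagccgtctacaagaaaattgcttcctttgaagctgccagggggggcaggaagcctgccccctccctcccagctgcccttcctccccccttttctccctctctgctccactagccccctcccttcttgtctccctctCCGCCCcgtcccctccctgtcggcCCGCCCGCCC
Prelp, chr1:133921402-133921651, minus strand: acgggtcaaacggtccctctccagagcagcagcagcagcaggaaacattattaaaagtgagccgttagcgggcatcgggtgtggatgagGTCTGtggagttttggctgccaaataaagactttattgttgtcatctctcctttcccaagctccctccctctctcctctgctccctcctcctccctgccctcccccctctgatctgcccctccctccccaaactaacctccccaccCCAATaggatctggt
Fmod, chr1:134037004-134037253, plus strand: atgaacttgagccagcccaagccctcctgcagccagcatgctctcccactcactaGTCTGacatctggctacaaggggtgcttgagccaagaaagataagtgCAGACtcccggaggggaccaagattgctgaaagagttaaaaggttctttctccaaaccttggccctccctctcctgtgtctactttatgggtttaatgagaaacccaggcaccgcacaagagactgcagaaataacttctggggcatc
Aspn, chr13:49544193-49544442, plus strand: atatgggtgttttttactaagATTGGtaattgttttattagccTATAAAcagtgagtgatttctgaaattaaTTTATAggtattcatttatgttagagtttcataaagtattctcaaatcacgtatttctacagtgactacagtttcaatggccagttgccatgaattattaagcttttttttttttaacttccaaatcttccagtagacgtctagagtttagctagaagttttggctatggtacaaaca
Ogn, chr13:49607765-49608014, plus strand: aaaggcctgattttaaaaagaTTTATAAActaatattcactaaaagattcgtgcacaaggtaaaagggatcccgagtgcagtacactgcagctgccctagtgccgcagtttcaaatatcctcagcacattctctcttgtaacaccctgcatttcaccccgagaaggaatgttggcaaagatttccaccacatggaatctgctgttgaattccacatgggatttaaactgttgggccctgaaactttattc
The letters of the TATA box, TATAAA, were found 2 times in Aspn and 2 times in Ogn, where both matches overlap, between 178 and 229 bases before the start site. This motif was present in 12.4% of all 32851 promoter entries over the same length. The SMAD box, GTCTG, occurred in Prelp (1 site) and Fmod (2 sites) and in 42.2% of all entries, so the neighbours Prelp and Fmod both hold it. The CCAAT box, named for its letters, occurred in Prelp and Aspn (1 site each) and in 33.8% of all entries. The GC box, GGGCGG, occurred 3 times in Bgn, where 2 matches overlap, and in 32.7% of all entries. The AP-1 site, TGANTCA, was in 6.75% of all entries and in none of the 5 sequences. These matches describe letters only.

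The DMSO libraries held 20344364 to 26824123 counted read pairs and the ABT-263 libraries 27325963 to 43562330, so every treated library was the deeper. Levels are given as CPM, counts scaled to TMM-normalized library size, for comparisons between mice, and as TPM, which also divides by exon length, for comparisons between genes. Summed keratinocyte markers (Krt5, Krt14, Krt10 and 6 others) lay between 19700 and 58510 CPM over the libraries, as for skin, and summed skeletal muscle markers between 26650 and 69980 CPM, so the samples held muscle as well. DMSO-treated mouse 481 stood apart by its hair follicle markers (2117 CPM against at most 22.2 CPM in the other DMSO-treated mice), and ABT-263-treated mouse 478 by the same markers in its group (400.5 CPM against 1.502 and 5.47 CPM in mice 476 and 477). The labels name no batch.

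Of the 9 members, 4 (Bgn, Lum, Prelp and Aspn) were higher after ABT-263 and none was lower, with a call taken as a Benjamini-Hochberg adjusted p below 0.05 in the quasi-likelihood test of edgeR. Across all genes tested, 12.4% were higher, 11.7% lower and 24.2% called in either direction. A total of 8 members had a positive log2 fold change, and the median was 1.19 against 0.00223 over all genes tested. In the same 4 genes every ABT-263-treated mouse lay above every DMSO-treated mouse, a pattern found in 18.7% of all genes tested (37.1% in either direction), and the other 5 members overlapped between groups. The count of 4 was 3 without DMSO-treated mouse 480, 481 or 482, and 2 when DMSO-treated mouse 483 or ABT-263-treated mouse 476 or 478 was omitted, and the median was 0.68 without mouse 478. In bulk skin, a change in the number of cells of a type and a change in RNA per cell cannot be told apart.

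**Figure D1:**
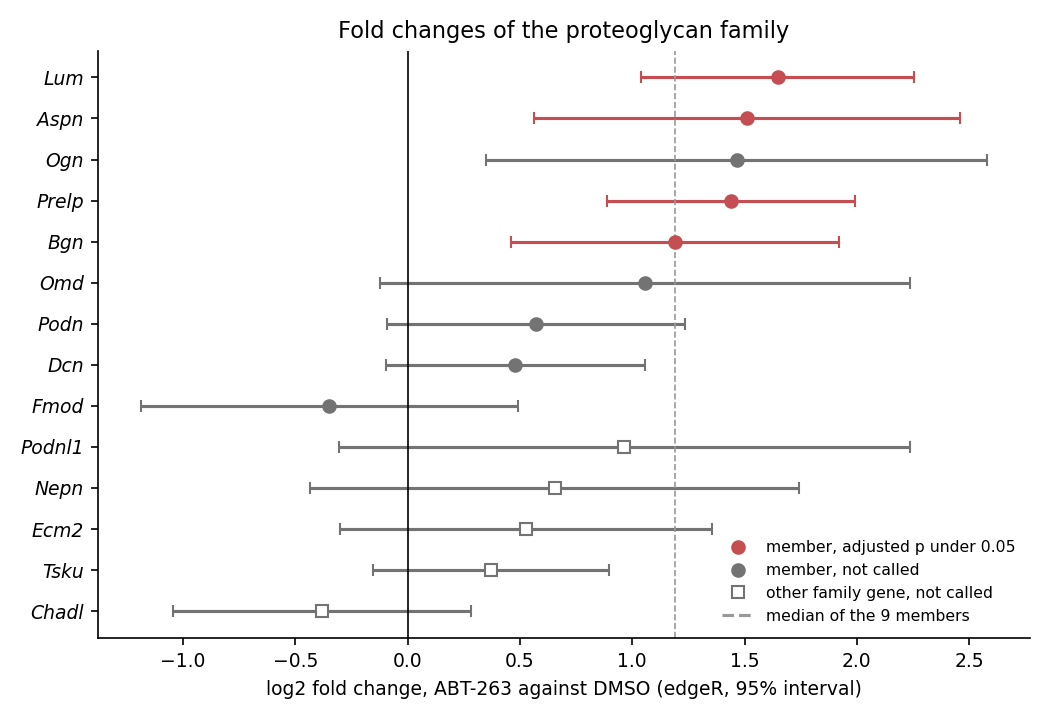
Log2 fold change of each member (circles) and of the 5 other SLRP genes tested (open squares), ABT-263 against DMSO, with 95% intervals from edgeR. The 4 red members are those past the adjusted threshold, the dashed line is the members' median of 1.19, and Fmod is the only member left of 0.

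Lumican, a keratan sulfate proteoglycan that binds fibrillar collagen, had the largest log2 fold change of the 9 with all mice in edgeR. The order was not stable, since Aspn (1.70) and Ogn (1.53) lay above Lum (1.49) with length and GC trends removed, Ogn (1.71) and Aspn (1.69) above Lum (1.68) without mouse 476, and Aspn (1.75) above Lum (1.70) without mouse 482. After DMSO, Lum was at 62.9, 55.9, 71.3 and 66.2 CPM in mice 480, 481, 482 and 483. After ABT-263 it was at 193 CPM in mouse 476, 121 CPM in mouse 477 and 288 CPM in mouse 478. The DMSO-treated mice were close together, and the lowest ABT-263-treated mouse was well above the highest of them. The log2 fold change was 1.65 (standard error, SE, 0.26, edgeR adjusted p = 0.00819), a fold of 3.13. Lum kept the call whichever mouse was omitted, at a log2 fold change from 1.30 to 1.93.

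Prelp encodes a proteoglycan with a basic N-terminal region that binds heparan sulfate and anchors basement membranes to connective tissue. It was at 30.9, 21.9, 28.1 and 27.2 CPM in DMSO-treated mice 480, 481, 482 and 483. In ABT-263-treated mice 476, 477 and 478 it was at 90.3, 45.0 and 84.5 CPM. Mouse 477 was the lowest of its group, as for Lum, and still above all controls. The log2 fold change was 1.44 (SE 0.24, edgeR adjusted p = 0.00887), and Prelp too kept the call whichever mouse was omitted, at 1.27 to 1.72.

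Biglycan, a chondroitin or dermatan sulfate proteoglycan closely related to decorin, was at 367, 173, 421 and 394 CPM in DMSO-treated mice 480, 481, 482 and 483. In ABT-263-treated mice 476, 477 and 478, Bgn was at 899, 559 and 864 CPM. All treated mice were above all controls, and mouse 481 was the lowest control. The log2 fold change was 1.19 (SE 0.32, edgeR adjusted p = 0.0318). The edgeR call was lost without mouse 482 (adjusted p = 0.0599), mouse 483 (0.0638), mouse 476 (0.0851) or mouse 478 (0.0934), while the log2 fold change stayed between 0.97 and 1.41 with each mouse left out.

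Asporin, a class I member with an aspartate-rich N-terminus that binds collagen and TGF-β, was at 7.78, 8.89, 17.6 and 13.5 CPM in DMSO-treated mice 480, 481, 482 and 483. Aspn was at 25.0, 20.7 and 56.1 CPM in ABT-263-treated mice 476, 477 and 478. The groups did not overlap, but mouse 478 was more than double the other treated mice. The log2 fold change was 1.51 (SE 0.41, edgeR adjusted p = 0.0349). Aspn kept the edgeR call in 2 of the 7 fits with a mouse left out, losing it without mouse 480 (adjusted p = 0.0648), 481 (0.0780), 483 (0.0723), 476 (0.0593) or 478 (0.105), and without mouse 478 the log2 fold change was 0.94.

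Osteoglycin, a small keratan sulfate proteoglycan of class III also called mimecan, had a similar size of difference without a call. Ogn was at 8.68, 14.1, 21.6 and 16.3 CPM in DMSO-treated mice 480, 481, 482 and 483. It was at 27.1, 21.3 and 77.1 CPM in ABT-263-treated mice 476, 477 and 478. The groups overlapped only in that mouse 477 was just below mouse 482, and mouse 478 was far above all others. The log2 fold change of 1.47 (SE 0.48, edgeR adjusted p = 0.0607) had a 95% interval from 0.35 to 2.58. Ogn passed without mouse 477 (edgeR adjusted p = 0.0367), and its log2 fold change was 0.68 without mouse 478.

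Decorin, the most abundant SLRP of the dermis and named for its decoration of collagen fibrils, did not pass the test. Dcn was at 711, 523, 736 and 860 CPM in DMSO-treated mice 480, 481, 482 and 483. It was at 1298, 729 and 934 CPM in ABT-263-treated mice 476, 477 and 478. Mouse 477 lay within the range of the controls, and mouse 476 was the highest of all 7. The log2 fold change was 0.48 (SE 0.25, edgeR adjusted p = 0.191), with a 95% interval from -0.10 to 1.06, which includes a 2-fold difference.

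Fibromodulin, a keratan sulfate proteoglycan that shares a collagen binding site with lumican, was the only member with a negative log2 fold change (-0.35, SE 0.37, edgeR adjusted p = 0.512, 95% interval -1.19 to 0.49). Fmod was at 7.57, 6.95, 9.80 and 14.0 CPM in DMSO-treated mice 480, 481, 482 and 483, and at 3.90, 8.80 and 9.84 CPM in ABT-263-treated mice 476, 477 and 478. The groups overlapped, with mouse 476, the highest for Dcn and Bgn, the lowest for Fmod. Podocan, of class V, ranged between 18.1 and 40.8 CPM in the controls and from 36.02 to 59.1 CPM in the treated mice (log2 fold change of Podn 0.57, edgeR adjusted p = 0.175). Osteomodulin, best known from bone, was the least counted member, with 365 read pairs in all, and had a log2 fold change of 1.06 (edgeR adjusted p = 0.163, 95% interval for Omd -0.12 to 2.23).

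**Figure D2:**
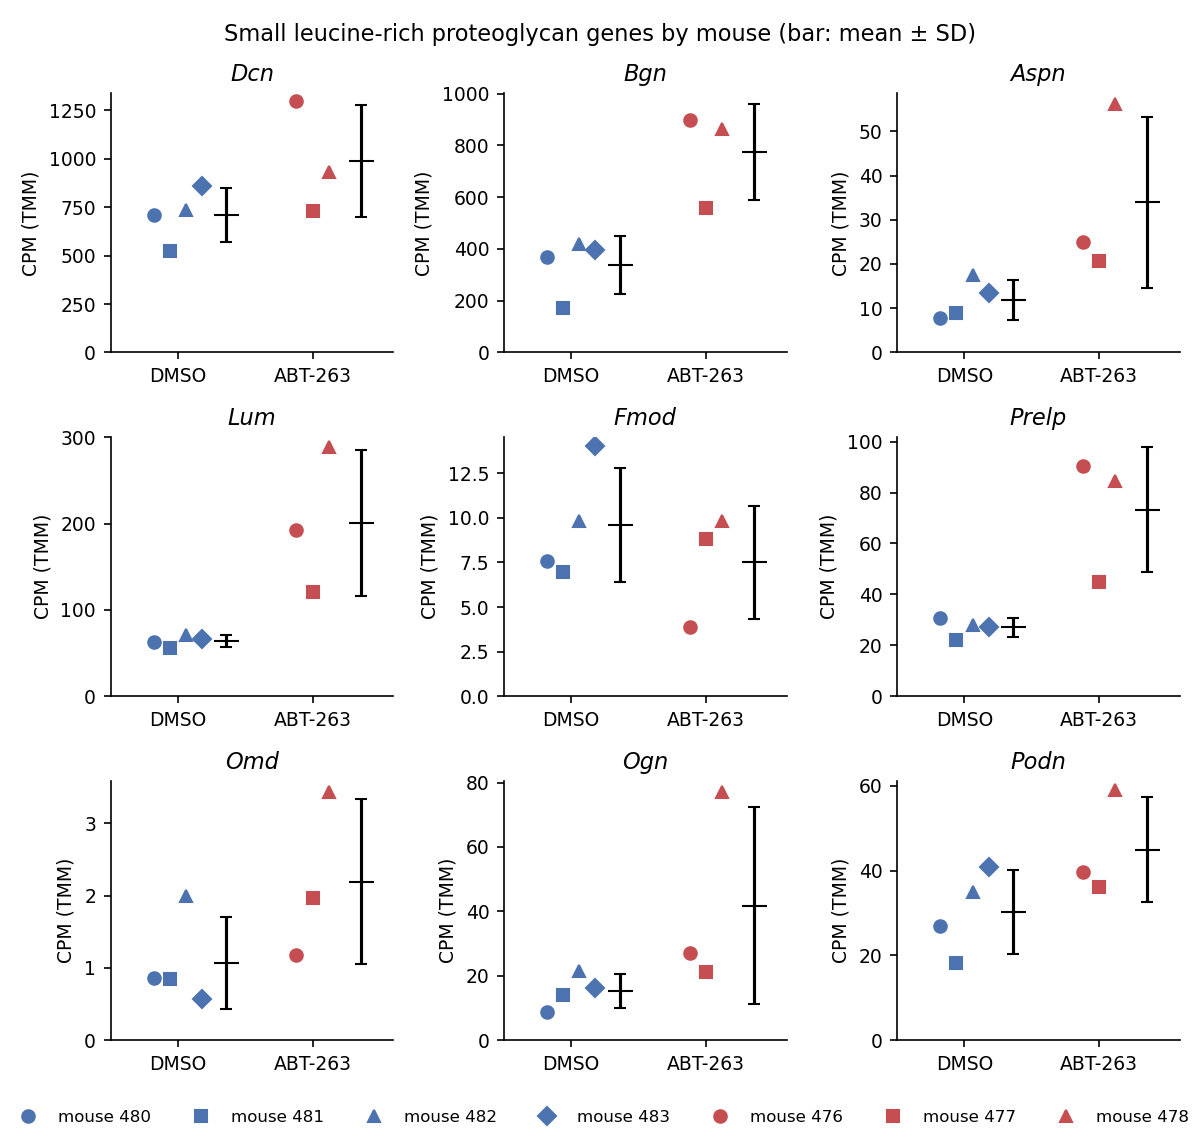
TMM-normalized CPM of each member in each of the 7 mice (points, shaped by mouse), with the mean and SD of each group as a bar and each y axis starting at 0. Treated points lie wholly above control points for Bgn, Aspn, Lum and Prelp, and mouse 478 (red triangle) is the highest point for Lum, Aspn, Ogn, Podn and Omd.

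Compared per exon length, Dcn led after DMSO with a mean of 244 ± 44.0 TPM (SD, n = 4), followed by Bgn at 111 ± 33.6 TPM and Lum at 52.8 ± 5.36 TPM, and the ranges of these did not overlap. Prelp (14.98 TPM), Podn (14.2 TPM), Ogn (12.1 TPM) and Aspn (10.3 TPM) followed with overlapping ranges, then Fmod (5.87 TPM), whose range overlapped those of Ogn and Aspn, and Omd (0.959 TPM). After ABT-263 the means were 386 TPM for Dcn, 292 TPM for Bgn and 191 TPM for Lum, with overlapping ranges. Prelp was then at 46.7 TPM, Ogn at 38.5 TPM, Aspn at 33.8 TPM, Podn at 24.4 TPM, Fmod at 5.24 TPM and Omd at 2.28 TPM, and only Podn and Fmod did not overlap as neighbours in this lower part of the order. On the TPM scale Ogn, which overlapped in CPM, lay at 6.03 to 16.8 under DMSO and at 17.8 to 74.3 under ABT-263, without overlap. The place of Bgn rests on the length used: divided by the longest transcript in place of the summed exons, Bgn was at 209 TPM after DMSO and 552 TPM after ABT-263, above Dcn at 397 TPM in the treated group.

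The members together made up 369 to 559 TPM per DMSO-treated mouse and 662 to 1275 TPM per ABT-263-treated mouse. The make-up of this sum differed between groups. Dcn gave 48.5% to 55.0% of it in the DMSO-treated mice and 31.1% to 44.0% in the ABT-263-treated mice, with no overlap. Lum gave 9.91% to 14.0% and 15.6% to 22.9%, Bgn 17.4% to 26.6% and 27.5% to 29.8%, and Prelp 2.76% to 3.72% and 4.05% to 4.94%, each higher in every treated mouse. Fmod was lower in every treated mouse, at 0.987% to 1.55% under DMSO and 0.233% to 0.865% under ABT-263. With the longest transcript as the length, Dcn and Fmod still gave less and Lum and Bgn still more in every treated mouse, while the ranges of Prelp overlapped. No test was run on these shares, which sum to a whole and so are not independent of each other.

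**Figure D3:**
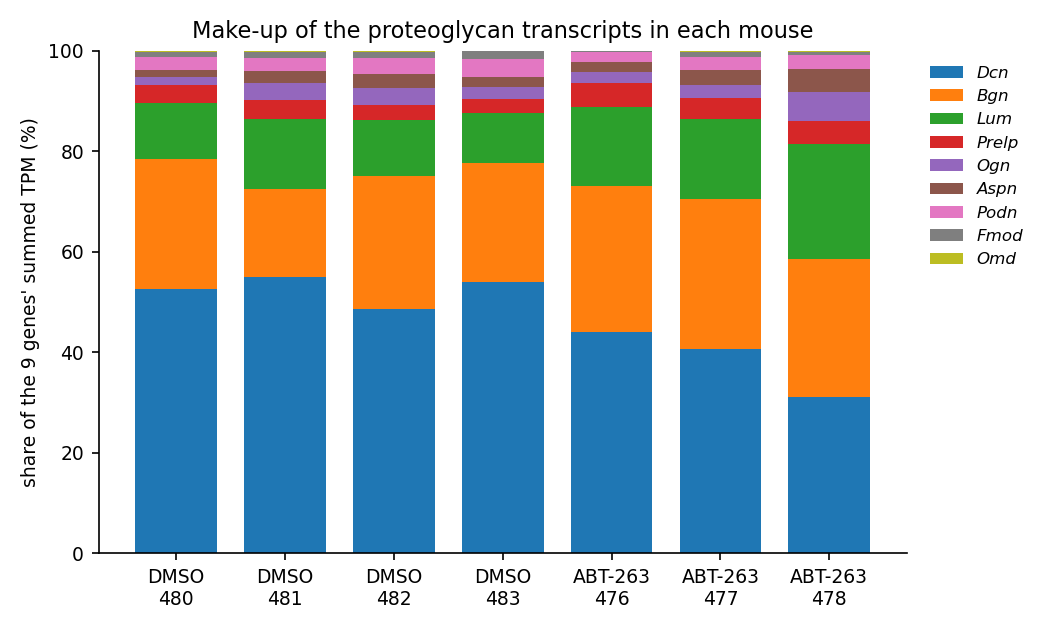
Share of each member in the summed TPM of the 9 genes, as stacked bars from 0 to 100% for each mouse, DMSO on the left and ABT-263 on the right. The blue part, Dcn, covers 48.5% to 55.0% in the 4 DMSO-treated mice and 31.1% to 44.0% in the 3 ABT-263-treated mice.

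Neighbours on a chromosome were compared within each mouse, by an exact permutation test over the 7 mice, two-sided, for 4 pairs chosen after the values of the members were seen. The ratio of Lum to Dcn in CPM was 0.0885, 0.107, 0.0968 and 0.0769 in mice 480, 481, 482 and 483, and 0.149, 0.166 and 0.309 in mice 476, 477 and 478. It was higher in every treated mouse, by 1.10 on the log2 scale (exact permutation p = 0.0286, the smallest possible with 4 mice against 3, and 0.0572 adjusted over the 4 pairs). The ratio of Prelp to Fmod was 4.08, 3.15, 2.86 and 1.94 in the DMSO-treated mice and 23.2, 5.12 and 8.59 in the ABT-263-treated mice. This too was higher in every treated mouse, by 1.79 on the log2 scale (exact permutation p = 0.0286, adjusted 0.0572). Neither passes after adjustment, and neither could, since both are at the smallest possible p and the remaining pairs are not. As the pairs were picked with these values in view, the p-values are no independent support. In the cluster on chromosome 13, the ratio of Aspn to Omd (exact permutation p = 0.400, adjusted 0.533) and that of Ogn to Omd (exact permutation p = 0.657, adjusted 0.657) overlapped between groups. Of all pairs of members, Ogn and Aspn had the most similar profile, with a mean absolute difference of 0.18 on the log2 scale over the 7 mice after centring each gene on its DMSO mean, followed by Lum and Prelp at 0.18, and Lum and Fmod had the least similar one, at 0.98.

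Profiles outside the family were ranked by the same measure over 13671 protein-coding genes with a mean of at least 1 CPM. The nearest to Lum were Rasd1 (0.13), the TGF-β receptor gene Tgfbr2 (0.14) and Mospd2 (0.15), and Tgfbr2 was also among the nearest 3 to Prelp (0.12), after Hhipl1 (0.11) and Erg (0.11). The nearest to Aspn were the collagen-binding integrin gene Itga11 (0.19), the matricellular gene Postn (0.23) and Tmeff2 (0.26). Those nearest to Bgn were Atp8b1 (0.12), Srpx2 (0.15) and Dab2 (0.15), those near to Dcn included Fah (0.06) and Myadm (0.08), and those nearest to Podn were Htra3 (0.10), Vtn (0.13) and Sorbs2 (0.13). Nearest to Ogn were Dennd4c (0.25), Pdgfc (0.26) and Pde10a (0.27), nearest to Fmod Cyp2j12 (0.13), Rarres1 (0.14) and Btnl9 (0.16), and nearest to Omd Skint3 (0.20), Reps2 (0.21) and Zfp518b (0.23).

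Because SLRPs are made mainly by fibroblasts, each member was also set against 10 fibroblast markers. The summed markers overlapped between groups, at 670 to 1079 CPM after DMSO and 944 to 1562 CPM after ABT-263, with mouse 478 the highest. The list did not move together: Pdgfra was higher (log2 fold change 1.72, edgeR adjusted p = 0.0156), Lamc3 and Dkk2 were lower, and the other 7 were not called. Divided by the summed markers, Bgn, Lum, Prelp, Aspn and Ogn were higher in every treated mouse. The share of all genes tested with this pattern after the same division was not computed. The ratio for Lum was between 0.0623 and 0.0834 under DMSO and between 0.128 and 0.185 under ABT-263, and its mean was 2.37 times that under DMSO. For Dcn the mean ratio was 0.750 after DMSO and 0.854 after ABT-263, with overlapping ranges.

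Against Pdgfra alone, the picture was different. No member was higher in every treated mouse, and Dcn, Fmod and Podn were lower in every treated mouse. How many of all genes tested were lower in this way relative to Pdgfra was not computed. The ratio of Dcn to Pdgfra lay between 33.9 and 38.2 after DMSO and between 12.1 and 20.1 after ABT-263. Pdgfra, the receptor for PDGF on fibroblasts, was itself at 15.4 to 24.7 CPM after DMSO and at 36.3 to 107 CPM after ABT-263. The mean ratios of Bgn, Prelp and Ogn, which were above those of the controls relative to the summed markers, were 0.795, 0.890 and 0.994 times those of the controls relative to Pdgfra.

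**Figure D4:**
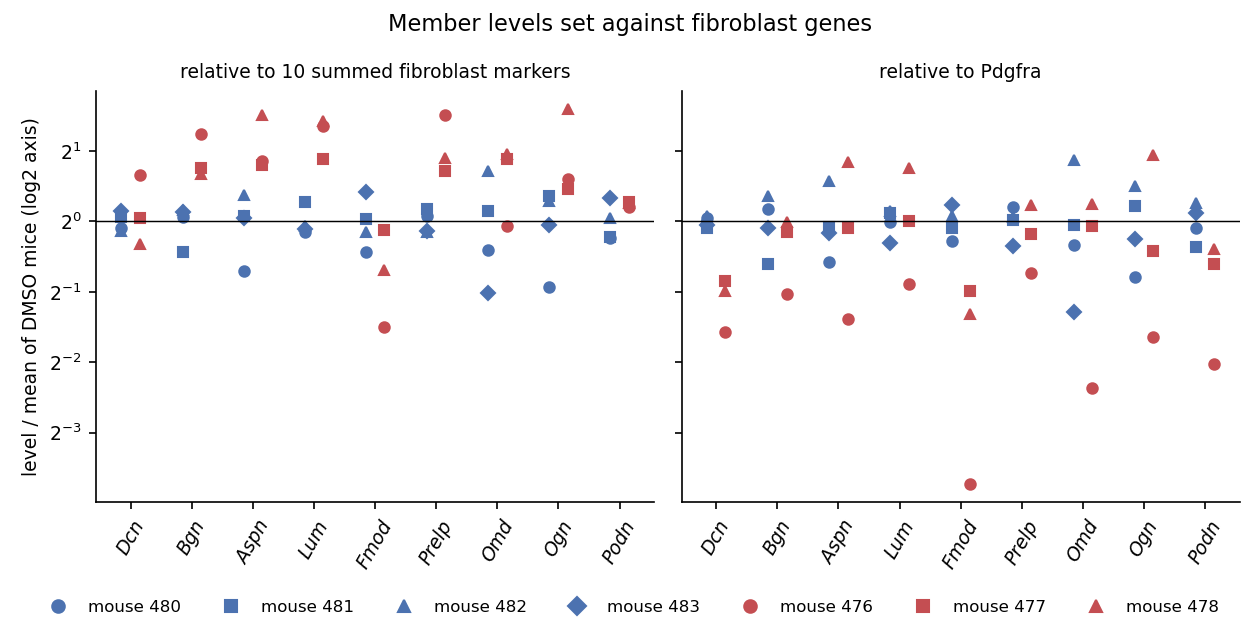
Level of each member in each mouse divided by the summed fibroblast markers (left) or by Pdgfra (right), scaled to the mean of the DMSO-treated mice, on a log2 axis. On the left the red points of Bgn, Aspn, Lum, Prelp and Ogn lie above all blue points, and on the right those of Dcn, Fmod and Podn lie below them.

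Markers of some other cells also differed between the groups, where 12.4% of all genes tested were higher and 11.7% lower. Endothelial markers were higher for 5 of 5 genes past the threshold, with sums of 123 to 284 CPM after DMSO and 415 to 560 CPM after ABT-263. Macrophage markers were higher for 4 of 6, with sums of 286 to 862 CPM and 905 to 2324 CPM. Of 4 neutrophil markers tested, 2 were higher, and the sums were 99.7 to 1820 CPM and 5095 to 8086 CPM. S100a8 and S100a9 made up most of the treated sums, with means of 2236 and 3941 CPM. Cxcr2 averaged 6.40 CPM after DMSO and 31.4 CPM after ABT-263, and Csf3r 2.52 and 33.7 CPM. Ly6g of the same list was not tested, with 0.101 to 14.0 CPM after ABT-263 (median 0.172) and at most 0.253 CPM after DMSO. Muscle markers were lower for 2 of 8 genes and higher for none, with overlapping sums (34570 to 69980 CPM and 26650 to 36100 CPM). All 8 had a negative log2 fold change (median -0.63). The sums overlapped only through DMSO-treated mouse 480, as the other controls were at 51980 to 69980 CPM. For tendon and fascia, tissue rich in several SLRPs, 1 of 6 markers was higher and 2 were lower, with sums of 64.5 to 82.6 CPM and 44.7 to 72.3 CPM. Of 9 keratinocyte markers 1 was lower, and none of 6 adipocyte, 4 smooth muscle and pericyte and 5 hair follicle markers was called, all with overlapping sums. Mouse 478, the highest for Lum, Aspn, Ogn, Podn and Omd, had the highest adipocyte sum (2010 CPM) and the highest hair follicle sum of its group (400.5 CPM). The part of these cells in the members' differences was not tested.

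Of 10 further family genes, 5 were tested and none was called. Tsku, an extracellular inhibitor of BMP and TGF-β signaling, averaged 16.5 ± 3.82 CPM in the controls and 21.4 ± 4.58 CPM in the treated mice (SD, n = 4 and 3) (log2 fold change 0.37, edgeR adjusted p = 0.260). Ecm2, next to Aspn on chromosome 13, had a log2 fold change of 0.53 (edgeR adjusted p = 0.310). Podnl1, the relative of Podn, had one of 0.96 (adjusted p = 0.229), Nepn one of 0.66 (adjusted p = 0.336) and Chadl one of -0.38 (adjusted p = 0.361). Epyc, Kera, Optc, Chad and Nyx, known mainly from cartilage, cornea and eye, had 8 to 62 read pairs in all 7 libraries together and were not tested.

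The sugar chains of SLRPs are built on a linker of 4 sugars and then extended and sulfated. Of 6 linker enzymes tested, 2 were lower after ABT-263 and none was higher, beside 11.7% lower and 12.4% higher among all genes tested. B3gat3, which adds the glucuronic acid that completes the linker, averaged 101 ± 10.7 CPM under DMSO and 62.2 ± 7.10 CPM under ABT-263 (SD, n = 4 and 3), with a log2 difference of -0.70 (edgeR adjusted p = 0.0134). Fam20b, the xylose kinase, had one of -0.46 (adjusted p = 0.0464). B3gat3 lost the edgeR call without mouse 478 (adjusted p = 0.0525) and Fam20b without any one mouse other than 477 (adjusted p from 0.0681 to 0.146).

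Of 15 chondroitin and dermatan sulfate chain enzymes tested, 5 were higher (Csgalnact1, Chsy1, Chst7, Dse and Dsel) and none was lower, with a median log2 fold change of 0.40. Across all genes tested, 12.4% were higher and 11.7% lower. Dse and Dsel are the epimerases that turn chondroitin into dermatan sulfate, the chain decorin and biglycan carry in skin. Dsel averaged 7.89 ± 0.655 CPM under DMSO and 14.7 ± 0.645 CPM under ABT-263 (SD, n = 4 and 3), with a log2 difference of 0.90 (SE 0.15, edgeR adjusted p = 0.00826). Chst7, which sulfates N-acetylgalactosamine, averaged 1.97 ± 0.555 CPM under DMSO and 5.62 ± 1.05 CPM under ABT-263 (log2 fold change 1.51, edgeR adjusted p = 0.0129), and both kept the call whichever mouse was omitted. The count of 5 was 3 without mouse 482 and 3 without mouse 483. None of 7 keratan sulfate enzymes tested was called by edgeR, with 3 of them at an unadjusted p under 0.05 and 2 called by the DESeq2 Wald test, although all 7 log2 fold changes were positive (median 0.50). Without mouse 481 or without mouse 477, 1 of them was called.

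**Figure D5:**
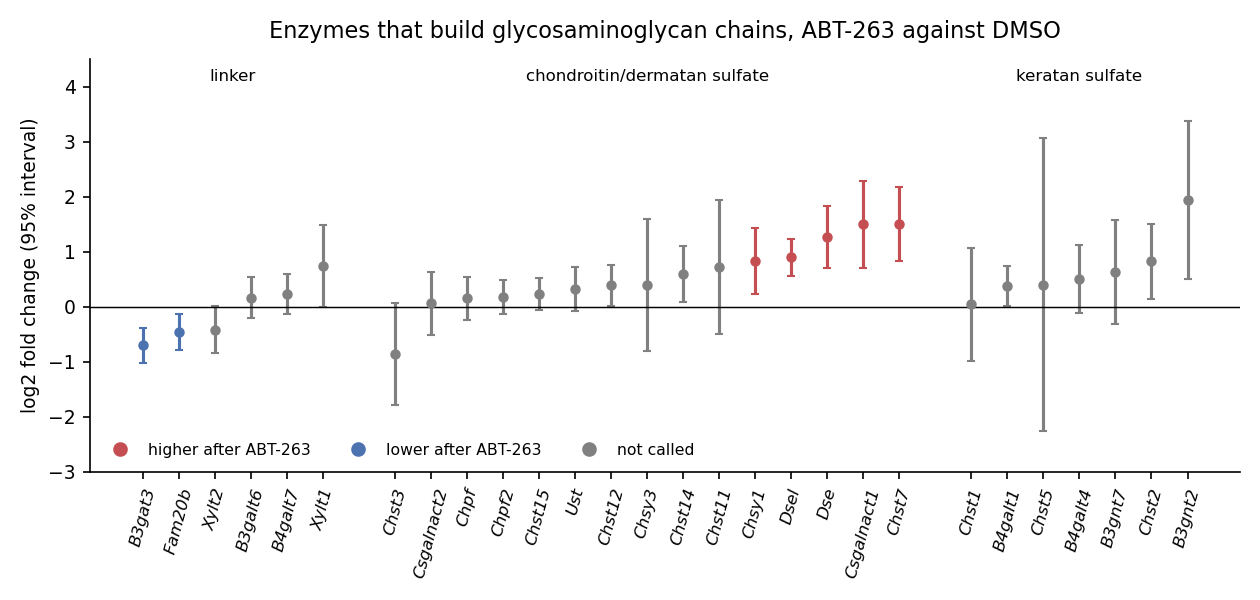
Log2 fold change, ABT-263 against DMSO, with 95% intervals from edgeR, of the enzymes that build the linker (6 genes), the chondroitin and dermatan sulfate chains (15) and the keratan sulfate chains (7). Red points mark the 5 higher and blue points the 2 lower genes past the adjusted threshold.

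Genes whose products bind or cut SLRPs were counted in 3 lists, beside 12.4% higher and 11.7% lower among all genes tested. Of 10 collagens that bind SLRPs, 6 were higher and none lower, led by Col3a1 (log2 fold change 2.93, edgeR adjusted p = 0.00602) and Col5a2 (2.48, adjusted p = 0.00622). The count was 3 without mouse 482 and 3 without mouse 478. Of 10 proteases tested that cut SLRPs, 7 were higher and none lower. For Mmp3, Mmp9, Mmp13 and Gzmb the SD of the treated mice exceeded their mean, as in Mmp13 at 141 ± 205 CPM with a median of 29.2 CPM. For Bmp1, Tll1 and Mmp2 it did not. Bmp1, which removes the propeptide of biglycan, averaged 70.9 ± 11.4 CPM under DMSO and 149.9 ± 32.0 CPM under ABT-263 (SD, n = 4 and 3), with a log2 difference of 1.08 (edgeR adjusted p = 0.00887). Its relative Tll1 averaged 0.405 ± 0.192 CPM under DMSO and 3.86 ± 1.97 CPM under ABT-263 (log2 fold change 3.25, edgeR adjusted p = 0.00761). The protease count was 2 without mouse 482 and 3 without mouse 483, and with all mice it was 3 by the DESeq2 Wald test and 4 with no filter on low counts. In the Wald count, a gene given no adjusted p was taken as not called.

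Of 15 receptors and ligands tested that SLRPs bind, 6 were higher and none lower. Among them were Tlr2, Tlr4 and Cd14, which are among the receptors of soluble biglycan on macrophages, and Cd14 had a log2 fold change of 3.67 (edgeR adjusted p = 0.0170), with 30.0 to 401 CPM in the treated mice. Without mouse 476 it was 2.20, and with no filter on low counts the edgeR call of Cd14 was lost (adjusted p = 0.0658). Kdr, the VEGF receptor of endothelium that decorin is known to bind, had one of 0.97 (adjusted p = 0.0111). The count was 2 without mouse 482, 3 without mouse 483 and 3 without mouse 476. For Tlr2 and Cd14 the SD of the treated mice exceeded their mean (35.9 ± 36.2 and 176 ± 198 CPM), and for Tlr4 it did not. P2rx7, Cd44, Tgfb1, Tgfb2 and Tgfb3 of this list were not called.

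Of 18 other matrix and cell surface proteoglycans tested, 3 were higher and 2 lower, near the 12.4% and 11.7% of all genes tested. Vcan, the large hyaluronan-binding versican, had a log2 fold change of 1.55 (edgeR adjusted p = 0.00987) and Prg4, the lubricant proteoglycan lubricin, one of 3.05 (adjusted p = 0.0103). Acan (-2.42, edgeR adjusted p = 0.0347) and Gpc6 (-1.29, adjusted p = 0.0469) were lower. Of the 7 edgeR fits that omit a mouse, Acan was called only in the one without mouse 480 and Gpc6 only in the one without mouse 477, and without mouse 481, 482, 483, 476 or 478 their adjusted p lay between 0.0528 and 0.110. The median of this list was 0.11, against 1.19 for the SLRP members.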

How the data were processed

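RNA of whole dorsal skin from 7 mice was sequenced, 4 treated with DMSO and 3 with ABT-263, and groups were taken from the sample titles. The authors aligned reads to mm10 with STAR 2.7.9a and deposited, per Ensembl gene, counts of uniquely aligned proper pairs on the same strand from featureCounts (Subread 1.6.2), without mitochondrial genes. The authors also deposited log2 values, variance-stabilized with DESeq2 1.23.10, which served here as an alternative. How RNA was extracted is given differently in the labels and the methods.

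Symbols, positions and exon lengths came from GENCODE M21 on GRCm38 (mm10), which held 55190 of the 55450 identifiers and is another release than the one the authors used. Counts were fitted across all genes in R 4.3.3 with edgeR 4.0.16 (TMM, filterByExpr, robust quasi-likelihood test, two-sided), with Benjamini-Hochberg adjustment over 17959 genes and a threshold of 0.05. The standard error is the log2 fold change divided by the square root of F. Profiles used log2 of CPM plus 0.5. Alternatives were DESeq2 1.42.0 (Wald test, size factors), other filters, length and GC trends removed (mgcv 1.9.3), counts thinned to the smallest library, limma 3.58.1 on the log2 values, and each mouse left out. Genes given no adjusted p by the Wald test were counted as not called. Named genes were all members, the family genes tested, up to 2 called genes in each direction with the smallest p from each further list, and the 3 nearest profiles; other genes named beside a count were picked with their values in view. A result that this rule would name is not reported here. The members and lists were chosen with earlier results of these data known. Tested on simulated data of this comparison (17505 to 17574 genes tested, 100 changed at each size), edgeR recovered 12.0% to 21.0% of 2-fold and 79.0% to 84.0% of 4-fold changes in 3 runs, and 5.66% to 9.62% of its calls were false. For the DESeq2 Wald test, with 17959 genes, 24.7% to 31.9% of the calls were false. These simulations changed far fewer genes than the 4342 called in the data, so both rates may differ there.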

Additional observations from a re-analysis of the deposited data

Results flagged for a closer look

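For 19 measures (the 9 members and 10 summed marker lists), the gap between the most extreme of the 4 controls and its nearest neighbour was divided by the range of the group, and 3 ratios exceeded Dixon's critical value, which chance exceeds in about 1 of 20 such groups. Mouse 481 stood apart in each. Its summed fibroblast markers were the lowest (670 CPM against 1010 to 1079 CPM, ratio 0.831), its tendon and fascia markers the highest (82.6 CPM against 64.5 to 67.6 CPM, ratio 0.831) and its hair follicle markers far the highest (2117 CPM against 19.2 to 22.2 CPM, ratio 0.999). None of the 9 SLRP members exceeded the value, with the largest ratios for Omd (0.801, mouse 482 high) and Bgn (0.784, mouse 481 low). Mouse 481 was also the lowest control for Dcn, Lum, Prelp, Fmod and Podn. Without it, Bgn had a log2 fold change of 0.97 (edgeR adjusted p = 0.0351) and Dcn one of 0.35.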

How the results depend on the processing

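Lum and Prelp were called under all 8 alternatives that kept every mouse and with each of the 7 mice left out, and Bgn under all 8 of the former. Aspn lost the call once the low-count filter was dropped (log2 fold change 1.54, edgeR adjusted p = 0.0758). Ogn gained one with the DESeq2 Wald test (1.47, adjusted p = 0.00934), a test with more false calls on simulated data, and with length and GC trends removed (1.53, edgeR adjusted p = 0.0448). With a mouse left out, log2 fold changes ran from 0.97 to 1.41 for Bgn, from 0.94 to 1.79 for Aspn and from 0.68 to 1.80 for Ogn, the number of members called higher from 2 to 5, and the median from 0.68 to 1.45. Dcn, Fmod, Podn and Omd were called under none of the 15. The threshold also moved, since 1735 to 4169 genes in all were called with a mouse left out against 4342. Relative to Pdgfra in place of the summed fibroblast markers, the ratio of ABT-263 to DMSO turned below 1 for Bgn (0.795), Prelp (0.890) and Ogn (0.994), and was 0.466 for Dcn, 0.327 for Fmod, 0.555 for Podn, 0.778 for Omd, 1.08 for Lum and 1.04 for Aspn. By the longest transcript, mean TPM was 209 and 552 for Bgn under DMSO and ABT-263, and 43.6 for Lum and 12.4 for Prelp under DMSO. Among the other lists, the Wald test called 2 keratan sulfate enzymes and 3 proteases higher, limma 1 keratan sulfate enzyme, and the fit with no filter 4 proteases, 1 linker enzyme lower and 1 other proteoglycan lower, the last count being 1 also with at least 10 counts required in every library and with protein-coding genes only. With each mouse left out, linker enzymes called lower ran from 0 to 2, chondroitin and dermatan sulfate enzymes higher from 3 to 5, keratan sulfate enzymes from 0 to 1, collagens from 3 to 7, proteases from 2 to 7, receptors from 2 to 6 and other proteoglycans lower from 0 to 2. Elsewhere the cause of a lost or gained call was not tested. No paired analysis was possible because the groups share no replicate numbers. Few replicates limit what a missing call says. Most simulated 2-fold changes were not recovered, but far fewer genes were changed in the simulations than were called in these data. The share recovered in these data may therefore differ.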
